A study of Mus musculus with 30 samples.

Results

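RNA of gradient pool 1 from mouse embryoid bodies (EB) was compared with unfractionated (total) RNA of the same kind of culture. The 6 arrays were taken by their titles, 3 labelled as EB pool 1 and 3 as EB total RNA, out of 30 arrays in the series. The EB came from R1, a mouse embryonic stem cell (ESC) line, and had grown for 5 days without LIF, the cytokine that keeps these cells undifferentiated. All lysates had been made after cycloheximide at 150 ug/ml for 15 min, in pool 1 and total RNA alike. Cytoplasmic lysate was spread over a sucrose gradient, and its fractions were joined into 4 pools. Pool 1 arrays therefore hold RNA of only part of the gradient, and total arrays hold RNA of lysate that was not spun. For each array 2.5 ug of RNA was labelled and hybridised to an Affymetrix mouse 430 2.0 array, and each group had 3 biological replicates. Whether pool 1 is the light or the heavy end of the gradient is not given in the labels. ESC kept with LIF, sampled as pool 1 and as total RNA with 3 arrays each, and EB pool 4, with 3 arrays, served for comparison. R1 is a single cell line, and a day 5 EB is a mixture of early embryonic cell types.

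In polysome profiling, cycloheximide holds elongating ribosomes on their mRNAs, and a sucrose gradient then sorts mRNAs by how many ribosomes they carry. Free ribonucleoprotein particles and single ribosomal subunits sediment slowly, and mRNAs with many ribosomes sediment fast. The number of ribosomes an mRNA can hold rises with the length of its coding sequence. Long noncoding RNAs have no long reading frame, and transcripts of the mitochondrial genome are translated by a separate set of ribosomes inside the organelle.

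A difference below is always the log2 level in EB pool 1 minus that in EB total RNA. Levels are log2(signal + 32) after quantile normalisation, which gives the 6 arrays one distribution, so that every difference is relative to all other probe sets. Equal masses of RNA were labelled. A gene that was higher stood higher relative to other probe sets in pool 1 than in total RNA. Whether it also made up a larger share of the RNA depends on the scaling and was not settled. How much of a transcript's molecules lay in pool 1 was not measured. In mixed cultures, fewer cells of a type and less RNA per cell cannot be told apart.

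The mean deposited signal, which is scaled to added spike-in RNAs, was 154, 96.1 and 128 on the pool 1 arrays, against 376, 302 and 357 on the total arrays. The groups did not overlap (126 ± 29.0 against 345 ± 38.4, SD, n = 3 each, exact two-sided permutation p = 0.1, the smallest that 3 against 3 can give). The lowest value of a pool 1 array was shared by 37.3% to 45.0% of its probe sets, a floor that the total arrays lack. The floor was 3.8, 2.93 and 3.35 (log2) on EB pool 1 replicates 1, 2 and 3, and the same on the same-numbered arrays of ESC pool 1 and EB pool 4. Processing that differed between pool and total arrays cannot be told apart from the difference between pool 1 and total RNA. Replicate arrays correlated across probe sets at 0.941 to 0.964 in pool 1 and at 0.978 to 0.982 in total RNA. The log2 ratio of 3' to 5' signal of Actb, a sign of RNA integrity, was 1.82, 2.98 and 2.84 in pool 1, against 2.50, 2.06 and 2.21 in total RNA (exact p = 0.5), so the groups overlapped. The same ratio for dap, a spike-in RNA, was 0.70, 0.59 and 0.75 in pool 1, against 1.02, 0.77 and 0.83 in total RNA, without overlap (exact p = 0.1), and its part in the results was not tested.

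Of 18193 genes, each read from its probe set of highest mean level, 921 were higher in EB pool 1 (5.06%) and 1263 were lower (6.94%), 12% in all, with limma and an adjusted p under 0.05. In each of these 2184 genes the 3 pool 1 values lay apart from the 3 total values. A call with 3 arrays per group largely sets this in advance, so it adds no support to the calls. Among the 2184 genes, 246 were higher and 414 were lower by at least 2-fold. The split depended on the scaling: 10 genes were higher and 10247 lower on the deposited scale, 2738 and 7662 after median centring, and 4945 and 2340 with arrays scaled to a common 75th percentile. The median of the 9558 genes above the floor on all 6 arrays moved from -0.03 to -1.54, -0.99 and -0.05 in these scalings. Without pool 1 replicate 2 the counts were 564 higher and 811 lower, and without total replicate 1, 2 or 3 they were 384 and 462, 392 and 486, and 440 and 516. Counts and directions below are therefore relative to all genes, and where the median of a described list changes side once this shift is taken off, that is stated.

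The 12 highest measured genes were ND5, Rian, Mir1949, Snhg3, Cdk12, 3110021A11Rik, AA386476, Igf2, Neat1, Rps27, Tmsb4x and A630026N12Rik, of which RefSeq types 6 as long noncoding RNAs. The 12 lowest were the protein-coding genes Srrm2, Son, Ankrd17, Tfcp2l1, Trim71, Atg16l1, Nup107, Vcp, Prrc2c, Dhx8, Psmd13 and Ampd2. Both sets are drawn by array. Of these 24, 19 stayed called with any 1 array left out. Trim71, Dhx8 and Psmd13 lost their call whichever of the 3 total arrays was left out (limma adjusted p up to 0.0573, 0.0576 and 0.0822). Nup107 lost it in the same cases and without pool 1 replicate 2 (up to 0.131), and Rps27 is described with the ribosomal proteins.

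**Figure D1:**
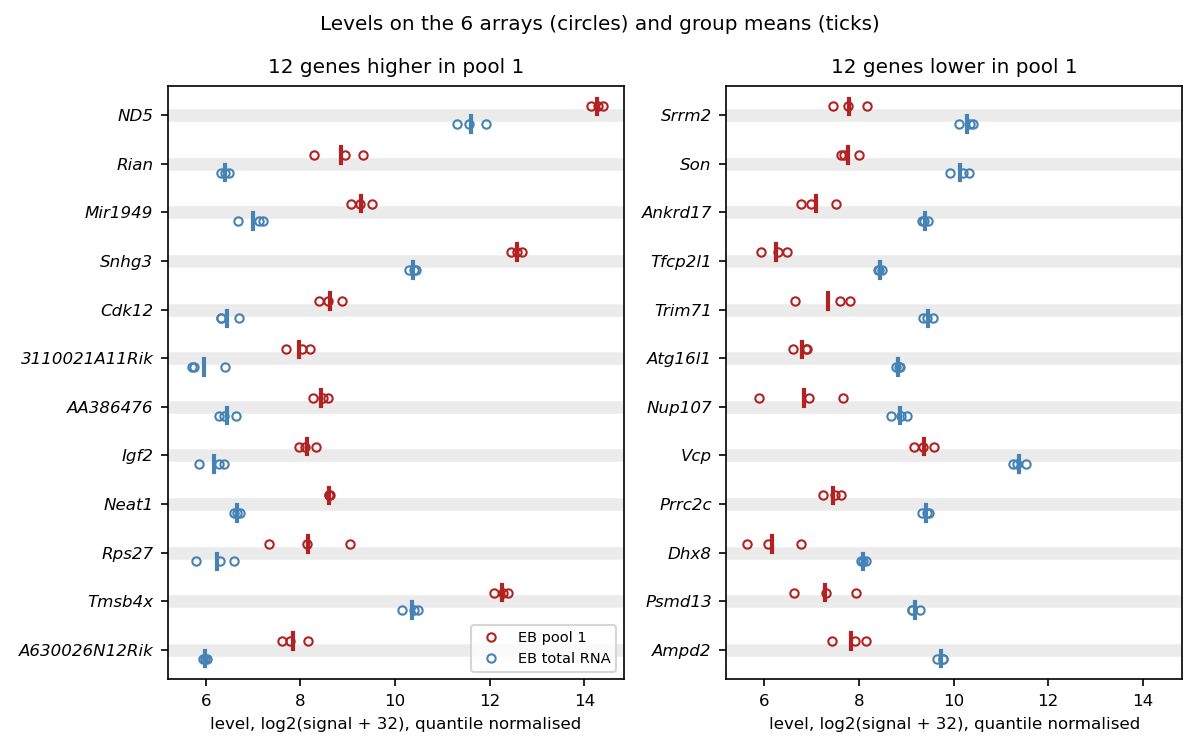
Level on each array, as log2(signal + 32) after quantile normalisation, of the 12 genes with the highest and the 12 with the lowest difference among called genes above the floor on all 6 arrays. Circles are single arrays, EB pool 1 above EB total RNA for each gene, and ticks are group means. The 24 genes were chosen among those whose 2 groups of circles do not overlap. ND5 at 2.67 and Srrm2 at -2.49 are the extremes.

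Among long noncoding RNAs, Rian, a maternally expressed transcript of the Dlk1-Dio3 imprinted region that hosts small nucleolar RNAs, measured 8.28, 9.32 and 8.95 in EB pool 1, against 6.40, 6.50 and 6.33 in EB total RNA. Its difference was 2.44 ± 0.26 (log2, SE, n = 3 each, limma adjusted p = 0.00446), 5.42-fold. Snhg3, a spliced host of a small nucleolar RNA, measured 12.58, 12.44 and 12.68, against 10.45, 10.29 and 10.41. All pool 1 arrays were above all total arrays, and the difference was 2.18 ± 0.11 (adjusted p = 0.00147). Neat1, the RNA scaffold of nuclear paraspeckles, measured 8.61, 8.60 and 8.62, against 6.66, 6.60 and 6.73, a difference of 1.95 ± 0.09. Malat1, an RNA of nuclear speckles, was higher by 1.81.

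Of 34 listed long noncoding RNAs, 15 were higher, 2 were lower and 17 were not called, and the list median was 0.45, against -0.03 over all 18193 genes. Besides those above, the higher ones were Bvht (1.26), Snhg12 (1.10), Dancr (1.06), Lncenc1 (0.85), Snhg7 (0.80), Mirg (0.79), Norad (0.72), Snhg8 (0.71), Snhg6 (0.65), Gas5 (0.63) and Kcnq1ot1 (0.47). The Snhg genes and Gas5 are hosts of small nucleolar RNAs. The lower ones were Firre (-0.95), which organises nuclear domains, and Tug1 (-0.85). In a wider set taken by gene type, which overlaps the list, of all 185 genes that the RefSeq gene table types as long noncoding and that were above the floor on all 6 arrays, 50 were higher (27%) and 3 were lower (1.62%), with a median of 0.36. Of 9305 protein-coding genes above the floor, 8.94% were higher and 11.1% lower, with a median of -0.04. These shares describe genes above the floor only. Over all genes, floor or not, 57 of 1355 long noncoding RNAs were higher (4.21%) and 7 were lower (0.517%), with a median of 0.05, against 5.17% and 7.6% of protein-coding genes with a median of -0.04, so the share called higher was then no larger in long noncoding RNAs. Of 8300 genes at the floor on at least 1 pool 1 array, limma called none higher, and 42 were higher at an unadjusted p under 0.05. A value at the floor is the lowest of its array, so the lack of calls was largely set in advance.

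Other transcripts among the 12 highest were 3110021A11Rik (2.01), AA386476 (2.0) and A630026N12Rik (1.87), which RefSeq also types as long noncoding. A probe set assigned to the Mir1949 locus was higher by 2.27 ± 0.19, but it measures a longer transcript of that locus and not the mature microRNA. Igf2, an imprinted growth factor, measured 7.98, 8.10 and 8.32 in pool 1, against 6.38, 6.28 and 5.85 in total RNA, a difference of 1.96 ± 0.17 (adjusted p = 0.00303). The 3 pool 1 arrays lay close together and above all total arrays.

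ND5, a subunit of respiratory complex I encoded by the mitochondrial genome, had the highest difference of all measured called genes. It measured 14.14, 14.39 and 14.29 in EB pool 1, against 11.56, 11.31 and 11.93 in EB total RNA, a difference of 2.67 ± 0.18 (adjusted p = 0.00209), 6.37-fold. It was the only gene of the mitochondrial genome among the named probe sets, so it stands alone and not for the other mitochondrial mRNAs.

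Nuclear genes of the mitochondrion were split. Of 75 genes of oxidative phosphorylation, 26 were higher, 4 were lower and 45 were not called, with a median of 0.20 (0.02 on the deposited scale relative to the median of measured genes). Among the higher ones, Cox8a of cytochrome oxidase measured 10.65, 10.39 and 10.59, against 9.11, 8.86 and 9.18, a difference of 1.49 ± 0.13 (adjusted p = 0.00314). Atp5md was higher by 1.49, Ndufa3 by 1.43, Ndufc1 by 1.36 and Atp5k by 1.18. The 4 that were lower, Atp5g3 (-1.17), Uqcrc1 (-1.13), Atp5b (-0.85) and Cox5a (-0.57), include Atp5b, the catalytic beta subunit of ATP synthase, and Uqcrc1, a core protein of complex III.

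Of 75 proteins of the mitochondrial ribosome, 18 were higher, 1 was lower and 56 were not called, with a median of 0.22, which became -0.12 on the deposited and median-centred scales once the shift of measured genes was taken off. Mrpl42 measured 11.66, 11.76 and 11.80 in pool 1, against 10, 10.14 and 10.22 in total RNA, a difference of 1.62 ± 0.11 (adjusted p = 0.0021). Mrps36 (1.48), Mrpl35 (1.17) and Mrpl33 (1.14) were also higher, and Mrpl37 (-0.71) was lower. Of 23 genes of mitochondrial protein import, 9 were higher and 1 was lower, with a median of 0.41. Timm8b, a small chaperone of the intermembrane space, was higher by 1.49 ± 0.11 and its relatives Timm8a2 and Timm8a1 by 1.02 and 0.98, whereas Tomm40 (-0.82), the channel of the outer membrane, was lower.

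Outside the mitochondrion, a list of small proteins also had more members higher than lower. Of 43 Sm, LSm and other small core proteins, 14 were higher, 1 was lower and 28 were not called, with a median of 0.36. Tmsb4x, thymosin beta 4, a short peptide that binds actin monomers, measured 12.09, 12.28 and 12.38 in pool 1, against 10.41, 10.15 and 10.49 in total RNA, a difference of 1.90 ± 0.14 (adjusted p = 0.00213). The calcium-binding protein S100a6 was higher by 1.29, and Lsm3 and Lsm6, subunits of the ring that binds U6 RNA, by 1.27 each. The RNA polymerase II subunits Polr2j and Polr2i were higher by 0.97 and 0.95. Snrpd3 (-1.0), a core protein of spliceosomal snRNPs, was the member that was lower.

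Of 10 replication-dependent histone genes, whose mRNAs end in a stem-loop and not in a poly(A) tail, 3 were higher, none was lower and 7 were not called, with a median of 0.51. H3c4 measured 8.25, 7.80 and 7.90, against 6.35, 6.54 and 6.26, a difference of 1.60 ± 0.16 (adjusted p = 0.00376). H1f2 was higher by 1.01 and H2ac19 by 0.86. With 1 array left out, H3c4 kept its call in 6 of 6 fits, H1f2 in 3 and H2ac19 in 1. Histone genes are near copies of each other, as are many ribosomal protein genes and their pseudogenes, and a probe set may bind several of them, so values of single members are uncertain.

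Among protein-coding genes above the floor, the share called higher differed by gene size. Protein size was not used here, so these genes were grouped by their genomic span from the RefSeq gene table, which also counts introns. Of 219 genes spanning under 2 kb, 30.6% were higher and 4.57% lower, with a median of 0.32. The share called higher was smaller in each longer bin, 15.4% at 2 to 5 kb, 9.14% at 10 to 20 kb and 3.18% of 314 genes over 200 kb, where 10.5% were lower. Mean level also differed between bins, 8.21 under 2 kb and 6.98 over 200 kb (log2), and its part in this pattern was not tested. Including genes at the floor, the share called higher was 10.4% under 2 kb and 1.37% over 200 kb, and the medians were 0.06 and -0.04.

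**Figure D2:**
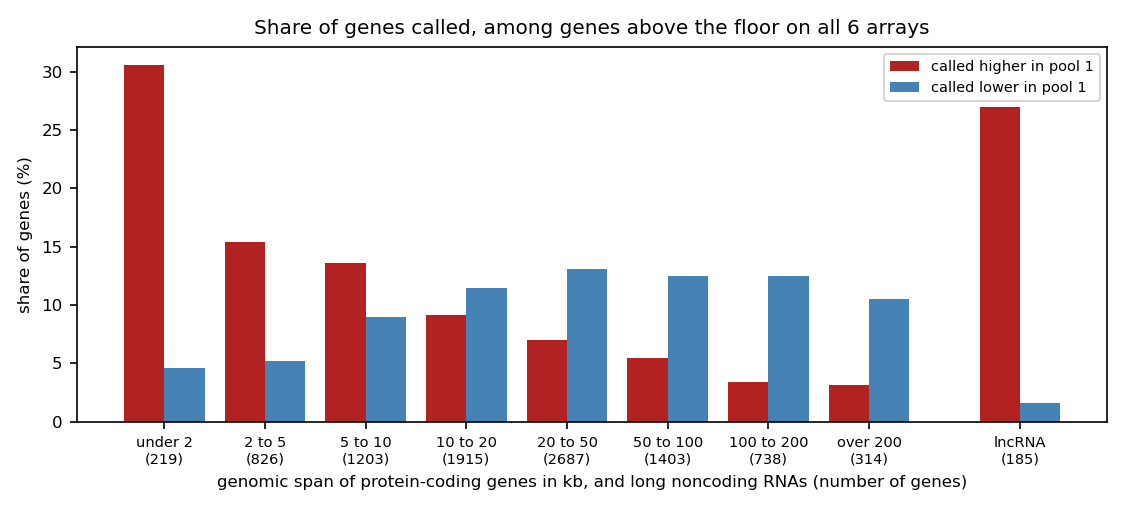
Share in percent of genes called higher (left bar of each pair) or lower (right bar) in EB pool 1 than in EB total RNA, for protein-coding genes by genomic span in kb and for long noncoding RNAs, all above the floor on all 6 arrays, with the number of genes in brackets. The share called higher is 30.6% under 2 kb, 3.18% over 200 kb and 27% for long noncoding RNAs; over all genes, which are not drawn, the shares are 10.4%, 1.37% and 4.21%.

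Ribosomal protein mRNAs and other mRNAs with a 5' terminal oligopyrimidine (TOP) tract, a run of C and T right at the start that places them under mTOR control, lay on both sides. Of 26 genes listed for the large ribosomal subunit 3 were higher and none lower, and of 24 for the small subunit 3 were higher and 1 was lower. The medians were 0.04 and 0.08 (0.60 and 0.66 on the deposited scale relative to measured genes, and 0.91 and 1.01 with the 75th percentile scaling). The member that was lower, Rps4l (-0.82), is typed by RefSeq as a transcribed pseudogene. It kept its call in 1 of 6 fits with 1 array left out. The same held for Rpl37 (0.8) and Rpl22l1 (0.71), which were higher. Rpl14 measured 9.62, 9.51 and 9.56, against 8.18, 8.37 and 8.27, a difference of 1.30 ± 0.10 (adjusted p = 0.00265). Rps27 measured 7.33, 9.05 and 8.13, against 6.60, 6.30 and 5.79. The pool 1 values spread over more than those of any other of the 12 highest genes, and the difference of 1.94 ± 0.44 (adjusted p = 0.043) was no longer called without pool 1 replicate 2, without pool 1 replicate 3 or without any of the 3 total arrays.

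Of 23 other TOP mRNAs, 4 were higher, 4 were lower and 15 were not called, with a median of -0.09 (0.36 with the 75th percentile scaling). Those called lie on both sides in the same class, so the start windows of the 5 called members with an entry in the RefSeq promoter table are shown, 15 bases before and 15 from the annotated start (GRCm38.p6), with the longest run of C and T in capitals where it has at least 6 bases.
Eif3f, chr7:108934400-108934429, plus strand: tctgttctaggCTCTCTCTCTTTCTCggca
Pfdn5, chr15:102326101-102326130, plus strand: ccctggcggcaccacggaggtaacgcggag
Eif3l, chr15:79075208-79075237, plus strand: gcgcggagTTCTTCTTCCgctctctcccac
Eif4b, chr15:102073758-102073787, plus strand: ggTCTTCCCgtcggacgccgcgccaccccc
Ncl, chr1:86359441-86359470, minus strand: ggctccggggacggacgcgagctctggttg

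Eif3f, a subunit of initiation factor 3, with a run of 15 bases, measured 13.10, 13.16 and 13.09 in pool 1, against 12.02, 11.92 and 12.12 in total RNA, a difference of 1.10 ± 0.10 (adjusted p = 0.00343). Eif3l, with a run of 10, was higher by 0.55, and Pfdn5, a prefoldin subunit whose longest run has 4 bases, by 0.62. Eif4b, a cofactor of the helicase eIF4A, with a run of 7 that ends before the annotated start, had a difference of -0.62, and the nucleolar protein Ncl, with a longest run of 4, had a difference of -1.09 ± 0.12. The longest runs, of 15 and 10, belonged to genes that were higher, and a longest run of 4 stood on each side. These 5 windows are too few to tell whether run and direction go together. List medians with and without a run of at least 6 were 0.20 and -0.01 for the large subunit. They were 0.08 and 0.11 for the small subunit and -0.07 and -0.23 for other TOP mRNAs, and these differences were not tested.
A run of at least 6 bases was present in 29.2% of 32851 promoter windows of this length. Among genes above the floor, 11% of the 2163 with such a run were higher and 11% were lower, against 8.9% and 11.3% of the 5695 without. An annotated start need not be the start used in these cells, and a run in the window is not a test of a TOP tract.

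Among 48 translation initiation factors, 8 were higher and 10 were lower, with a median of -0.10 (0.03 with the 75th percentile scaling relative to measured genes). Within initiation factor 3, Eif3f (1.10), Eif3h (1.04), Eif3m (0.93) and Eif3l (0.55) were higher, while Eif3a (-1.19), Eif3c (-0.94), Eif3b (-0.72) and Eif3d (-0.61) were lower. The subunits that were lower include the large scaffold subunits a, b and c. The 4E-binding proteins Eif4ebp2 and Eif4ebp1, inhibitors of cap binding, were higher by 0.80 and 0.76. Eif6 (-1.33), which keeps ribosomal subunits apart, was lower.

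Of 8 mRNAs with an iron-responsive element, a hairpin bound by iron regulatory proteins when iron is low, 3 were higher, none was lower and 5 were not called, with a median of 0.23 (-0.12 when the median over probe sets of a gene was taken). Fth1, the heavy chain of ferritin with the element in its 5' UTR, measured 13.12, 13.09 and 13.03 in pool 1, against 11.30, 11.35 and 11.32 in total RNA. The arrays of each group lay within a narrow range, and the difference was 1.76 ± 0.09 (adjusted p = 0.00148). The iron exporter Slc40a1 was higher by 1.19 ± 0.12. Tfrc, the transferrin receptor with elements in its 3' UTR, was higher by 0.76 ± 0.10 in its brightest probe set, and its other probe sets lay at -0.46 and -0.20, neither called.

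On the low side, splicing factors stood out. Of 43 splicing factors and CLK kinases, none was higher, 22 were lower and 21 were not called, with a median of -0.56. Srrm2, a very large protein of nuclear speckles, measured 8.17, 7.46 and 7.77 in EB pool 1, against 10.35, 10.11 and 10.41 in EB total RNA. No pool 1 value came near a total value, and the difference was -2.49 ± 0.20 (adjusted p = 0.00245), 5.62-fold. Son, the other large speckle protein, measured 8.0, 7.68 and 7.62, against 10.20, 9.92 and 10.32, a difference of -2.38 ± 0.16. Hnrnpm (-1.09), Srsf5 (-1.0), Ewsr1 (-0.95), Ddx39b (-0.91), Hnrnph1 (-0.88), Ddx5 (-0.83) and Clk1 (-0.54) were lower as well. The splicing helicase Dhx8, which is not on the list, measured 6.77, 6.09 and 5.64, against 8.15, 8.09 and 8.05, a difference of -1.93 ± 0.27.

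Of 39 proteasome subunits, 17 were lower and 1 was higher, with a median of -0.43. Psmd2, a scaffold subunit of the regulatory particle, measured 9.04, 8.87 and 8.92, against 10.74, 10.66 and 10.77, a difference of -1.78 ± 0.10 (adjusted p = 0.00148). Psmd13 (-1.90), Psmd1 (-1.47), Psmd3 (-1.31) and Psmd7 (-1.17), like Psmd2 subunits of the regulatory particle that recognises ubiquitinated proteins, were lower, and so were core particle subunits such as Psmb5 (-0.93) and Psma1 (-0.66). The member that was higher, Psmb8 (0.91), belongs to the immunoproteasome. Vcp, the ATPase that feeds unfolded proteins to the proteasome, measured 9.58, 9.17 and 9.36, against 11.34, 11.26 and 11.53, a difference of -2.0 ± 0.14. Of 8 subunits of the CCT chaperonin, which folds actin and tubulin, 5 were lower and none was higher, and the median was -0.65. Cct7 measured 11.13, 10.97 and 11.34, against 12.35, 12.26 and 12.56, a difference of -1.24 ± 0.14.

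Of 18 aminoacyl-tRNA synthetases, 9 were lower, none was higher and 9 were not called, with a median of -0.78. Aars, which charges alanine tRNA, measured 8.20, 8.22 and 8.29, against 9.67, 9.65 and 9.84, a difference of -1.48 ± 0.10 (adjusted p = 0.0021). Vars (-1.58), Lars (-1.30), Cars (-1.23) and Mars1 (-1.05) were lower too. Vars was at the floor on 1 pool 1 array, and it kept its call in 2 of 6 fits with 1 array left out. Of 17 glycolytic genes, 8 were lower and none was higher, with a median of -0.44. Pfkl, a phosphofructokinase, measured 8.59, 8.11 and 8.54, against 10.18, 9.96 and 10.17, a difference of -1.69 ± 0.16. Pfkp (-1.40), Pkm (-1.0), Ldha (-0.86) and the glucose transporters Slc2a3 (-0.47) and Slc2a1 (-0.44) were also lower.

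Of 41 genes of the cell cycle, 15 were lower and 3 were higher, with a median of -0.37. Subunits of the MCM helicase led: Mcm6 measured 9.73, 9.40 and 9.18, against 10.93, 11.07 and 11, a difference of -1.56 ± 0.16 (adjusted p = 0.00416), and Mcm5 and Mcm3 lay at -1.22 and -1.16. The mitotic activator Cdc20 (-1.15) and the sliding clamp Pcna (-1.09) were lower. The 3 that were higher were the CDK inhibitors Cdkn1a (0.93) and Cdkn1b (0.73) and the cyclin Ccne2 (0.74).

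Of 34 genes of the pluripotent state, 13 were lower, 1 was higher and 20 were not called, with a median of -0.44. Tfcp2l1, a transcription factor of naive pluripotency, measured 6.49, 6.30 and 5.94, against 8.41, 8.48 and 8.43, a difference of -2.20 ± 0.16 (adjusted p = 0.00213). Trim71, an RNA-binding ubiquitin ligase of stem cells and target of let-7, measured 7.81, 7.60 and 6.65, against 9.35, 9.45 and 9.56, a difference of -2.10 ± 0.30. L1td1 (-1.32), Tbx3 (-1.09), Klf4 (-0.93), Zfp42 (-0.88), Sall4 (-0.74), Klf5 (-0.71) and Nanog (-0.69) were lower, and Dppa3 (0.64) was higher. A gene's difference between pool 1 and total RNA is a separate quantity from its level in EB, which is not compared here.

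Of 42 giant proteins, 13 were lower and none was higher, with a median of -0.49. Ubr4, a ubiquitin ligase, had a difference of -1.30 ± 0.15, and Spen (-1.19), Ep400 (-1.09), Golgb1 (-1.04) and fatty acid synthase Fasn (-0.88) were lower. Spen was at the floor on 1 pool 1 array. With 1 array left out, Spen kept its call in 3 of 6 fits and Ep400 in 2 of 6. Of 331 zinc finger proteins, 35 were lower and 8 were higher, with a median of -0.17 that became 0.29 on the deposited and median-centred scales relative to measured genes, and 0.02 with the 75th percentile scaling. Their shares, 10.6% lower and 2.42% higher, stand beside 6.94% and 5.06% of all genes. The mRNA-decay factor Zfp36 (1.47) was among the higher members.

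**Figure D3:**
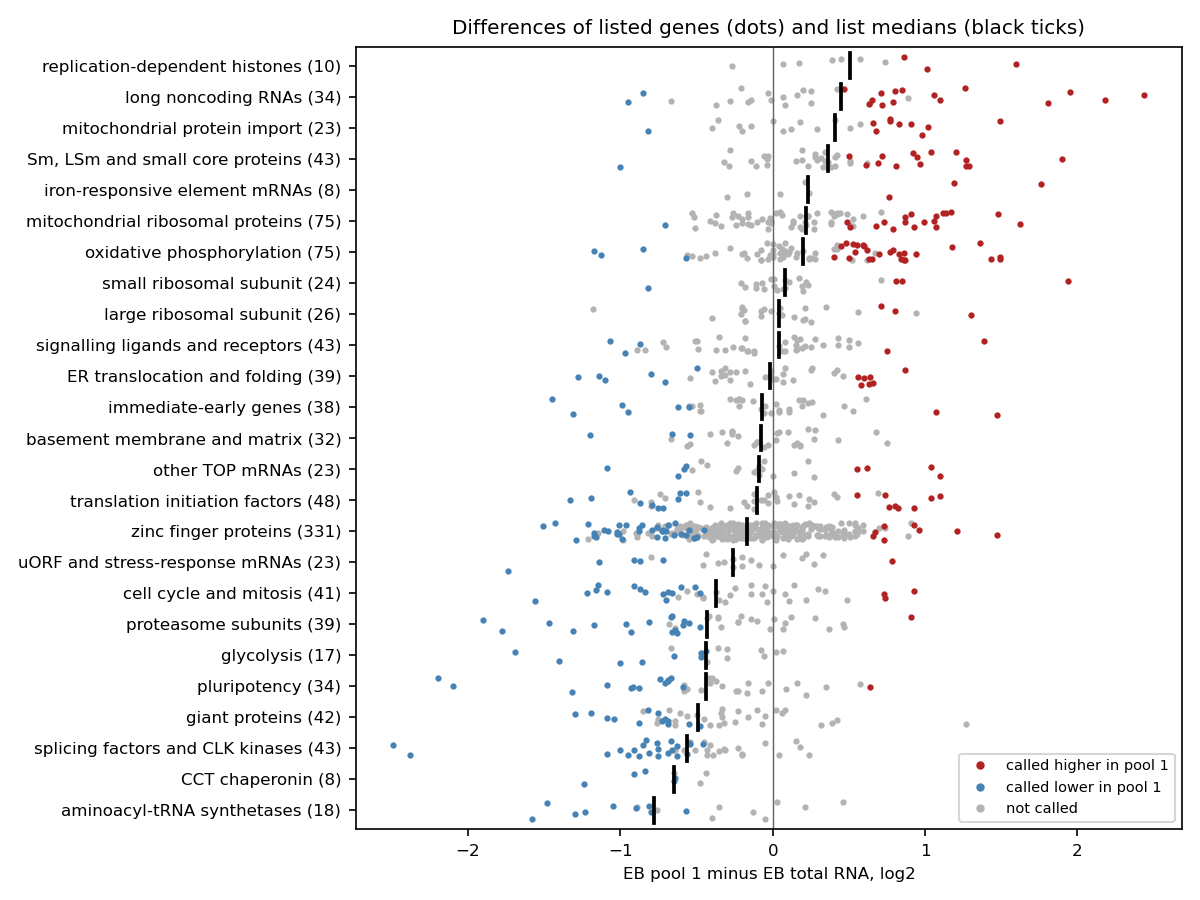
Difference in log2 level, EB pool 1 minus EB total RNA, for the genes of 25 lists, with the number of genes in brackets. Each dot is a gene, coloured by whether it was called higher, called lower or not called, and black ticks are list medians, from 0.51 for replication-dependent histones to -0.78 for aminoacyl-tRNA synthetases.

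Where no member of a list was called on a side, members were also counted at limma's unadjusted p under 0.05. The count was 2 lower among large ribosomal subunit proteins, none lower among histone and iron-responsive element mRNAs, and none higher among splicing factors, CCT subunits and glycolytic genes. It was 1 higher among aminoacyl-tRNA synthetases, 2 higher among giant proteins and 4 higher among matrix genes.

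Several groups were mixed or close to all genes. Of 39 genes of translocation into and folding in the endoplasmic reticulum, 7 were higher and 6 were lower, with a median of -0.02. The higher ones included Dad1 (0.87), a subunit of the oligosaccharyltransferase, Spcs1 (0.66) of the signal peptidase and Srp14 (0.63) of the signal recognition particle, and the lower ones included the chaperones Hspa5 (-1.28) and Hsp90b1 (-0.71). Hspa5, also called BiP, measured 10.54, 10.24 and 10.56, against 11.73, 11.65 and 11.81. Of 23 mRNAs listed for upstream open reading frames or for the stress response, 5 were lower and 1, Ddit3 (0.78), was higher. The median of this joint list was -0.26. The lower ones were Eprs (-1.74), Ibtk (-1.14), Asns (-0.91), Trib3 (-0.87) and Ppp1r15a (-0.72). Ibtk was at the floor on 1 pool 1 array, and it kept its call in 2 of 6 fits with 1 array left out.
Of 38 immediate-early genes, 2 were higher, Zfp36 and Ier3 (1.07), and 6 were lower, led by Ier2 (-1.45) and Gadd45g (-1.31). These are 5.26% higher and 15.8% lower, against 5.06% and 6.94% of all genes. Gadd45g kept its call in 2 of 6 fits with 1 array left out. Of 32 genes of basement membrane and matrix, 3 were lower, Nid2 (-1.2), Plod2 (-0.66) and Fn1 (-0.54), and none was higher. The list median was -0.08 (0.24 on the deposited scale and 0.09 with the 75th percentile scaling, both relative to measured genes). Nid2 and Plod2 each kept their call in 1 of 6 fits with 1 array left out, and Fn1 in 0 of 6. A dimmer probe set of Fn1 was higher by 0.64 (limma adjusted p = 0.025). Of 43 signalling ligands and receptors, 2 were higher, Fgf5 (1.39), a growth factor of the epiblast, and Notch3 (0.75), and 3 were lower, Acvr2b (-1.07), Epha2 (-0.97) and Ephb4 (-0.87). The median was 0.04 (-0.16 over members above the floor). The shares of this list, 4.65% higher and 6.98% lower, were close to the 5.06% and 6.94% of all genes.

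Markers of cell types that a day 5 EB may hold were mostly near the floor. With limma none of 12 mesoderm and none of 12 neural markers was called (1 and 4 at an unadjusted p under 0.05). The median of the neural markers was -0.05 (1.23 on the deposited and median-centred scales and 0.50 with the 75th percentile scaling, relative to measured genes), and the neural markers Hoxb1, Neurog2, Sox1 and Zic1 were at the floor on all pool 1 arrays. The summed linear level of 18 primitive endoderm markers was 579 to 669 in pool 1, against 817 to 903 in total RNA. Of these markers 3 were lower, Cited1 (-0.93), Amn (-0.73) and Gata6 (-0.61), and none was higher, also at an unadjusted p under 0.05. The list median was -0.23, but 0.87 on the deposited and median-centred scales and 0.19 with the 75th percentile scaling, relative to measured genes. On the first of these scales Cited1 and Amn also changed side (0.11 and 0.50), Amn was at the floor on all pool 1 arrays, and Gata6 lost its call whichever array was left out (limma adjusted p 0.0572 to 0.128). The summed level of 8 trophoblast markers was 1856 to 2166 in pool 1, against 1142 to 1306 in total RNA, and 2 of them were higher. Without Krt18 the sum was 629 to 1020 in pool 1, against 788 to 941 in total RNA, so the groups overlapped. The list median was -0.13, with 3 of 8 members above 0 (1.17 and 0.41 in those scalings, relative to measured genes).
The 2 called members were the epithelial keratins Krt18, which measured 10.38, 10.04 and 10.20, against 8.59, 8.50 and 8.66 (1.62 ± 0.12), and Krt8 (1.0). Cdx2, Tfap2c and the other members were not called, and Elf5 was at the floor on all pool 1 arrays. Of 12 fibroblast markers, summing to 413 to 533 in pool 1 and 268 to 292 in total RNA, Acta2 (1.30) was higher. The other 11 were not called, 3 of the 12 were above the floor on all 6 arrays, and the list median was 0.18. Acta2 measured 7.61, 7.71 and 7.69, against 6.32, 6.19 and 6.59. It is part of the sums, and sums without it were not taken, so they do not stand for the list. Etv2 (0.74), a blood and vessel factor, was the called member of 15 heart and blood markers (6.67%, against 5.06% of all genes called higher). It kept its call in 1 of 6 fits with 1 array left out. At limma's unadjusted p under 0.05, 1 member of this list was higher and 2 were lower. The list summed to 374 to 592 in pool 1 and 303 to 434 in total RNA, so the groups overlapped.

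A separate set of genes lay at the floor on some or all pool 1 arrays. Of 2477 genes at the floor on all 3 pool 1 arrays, 90 were lower, and of 5823 at the floor on 1 or 2 of them, 133 were lower. Both are smaller shares than the 6.94% lower over all genes. The other 335 genes were above the floor on the pool 1 arrays but below it on a total array. Among genes at the floor on all 3 pool 1 arrays, the 6 with the highest level in total RNA were Dhx38, Cep131, Rttn, Gpc1, Crocc and Rai1. Dhx38, a splicing helicase, lay at 7.13, 7.03 and 7.31 in total RNA, and Cep131, a centriolar protein, at 7.10, 6.78 and 6.74. Rttn and Crocc also encode centriole or rootlet proteins, and Gpc1 is a cell surface proteoglycan. Their pool 1 levels are upper limits set by the floor, so the fitted differences of -1.80, -1.52, -1.43, -1.30, -1.29 and -1.17 in that order have no measured pool 1 side.

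Many genes had several probe sets, which measure different stretches of a transcript, and some disagreed. Of 18193 genes, 9010 had more than 1 probe set, and 89 called genes had another probe set called in the opposite direction. Srrm2 had a dimmer probe set that measured 8.07, 8.72 and 8.66 in pool 1, against 6.84, 6.90 and 6.57 in total RNA, a difference of 1.71 ± 0.20 (adjusted p = 0.00602). Vcp had a dimmer one at 1.5 ± 0.16, Prrc2c at 1.89 ± 0.16 beside -1.97 for its brightest, and Ankrd17 at 0.76 beside -2.29. Cdk12, a kinase of the RNA polymerase II tail, was named among the highest at 2.17 ± 0.18, but of its 7 probe sets another was higher (1.32) and 2 were lower (-1.09 and -0.89). What these probe sets bind (other ends, introns, other isoforms) was not tested. A statement on these 5 genes, or on Fn1 among the matrix genes, holds for the brightest probe set only. No other probe set of Son, Tfcp2l1, Atg16l1, Fth1 or Neat1 was called in the opposite direction.

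The other pools of EB give the level of these transcripts relative to other probe sets in each pool. They do not give how their molecules were spread over the gradient. Pool levels below were normalised together with total RNA over 15 arrays. In pool 2, replicate 3 stood apart from the others (correlations of the deposited values of 0.870 and 0.871, against 0.959 between replicates 1 and 2). ND5 averaged 14.38 ± 0.13, 11.93 ± 0.76, 9.31 ± 0.35 and 8.96 ± 0.35 in pools 1 to 4 (SD, n = 3), and 12.05 ± 0.29 in total RNA. Without replicate 3 the pool 2 mean of ND5 was 11.51. Snhg3 averaged 12.94, 10.20, 9.40 and 8.85 in pools 1 to 4, and 10.89 in total RNA. Both were highest in pool 1, and the means of pools 3 and 4 lay close to each other beside their SDs (0.35 and 0.35 for ND5, 0.17 and 0.46 for Snhg3).
Tmsb4x averaged 12.67, 12.44, 10.66 and 9.61, with pools 1 and 2 close together (SD 0.15 and 0.25), and 10.86 in total RNA. Vcp, Psmd2, Tfcp2l1 and Srrm2, all lower in pool 1, had their highest pool mean in pool 4. This did not hold for every gene lower in pool 1. Zfp428, Ier2 and Eif6 averaged 9.67, 11.43 and 10.86 in pool 3, against 8.96, 10.86 and 10.14 in pool 4. Vcp averaged 9.86, 10.31, 11.22 and 12.73, Psmd2 9.43, 10.13, 10.62 and 11.75, and Tfcp2l1 6.42, 7.38, 8.34 and 9.50 in pools 1 to 4. Srrm2 averaged 8.20, 8.83, 10.08 and 10.61, with an SD of 0.79 in pool 4, and 10.79 in total RNA, above each pool mean. Total RNA averaged 11.84 for Vcp, 11.22 for Psmd2 and 8.89 for Tfcp2l1, below their pool 4 means. Leaving out pool 2 replicate 3 moved the pool 2 means of Snhg3, Tmsb4x, Vcp, Psmd2, Tfcp2l1 and Srrm2 to 10.32, 12.32, 10.24, 10.07, 7.33 and 8.93. Krt18 was above its total RNA level of 9.05 in every pool, at 10.71, 10.54, 9.79 and 9.91.

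**Figure D4:**
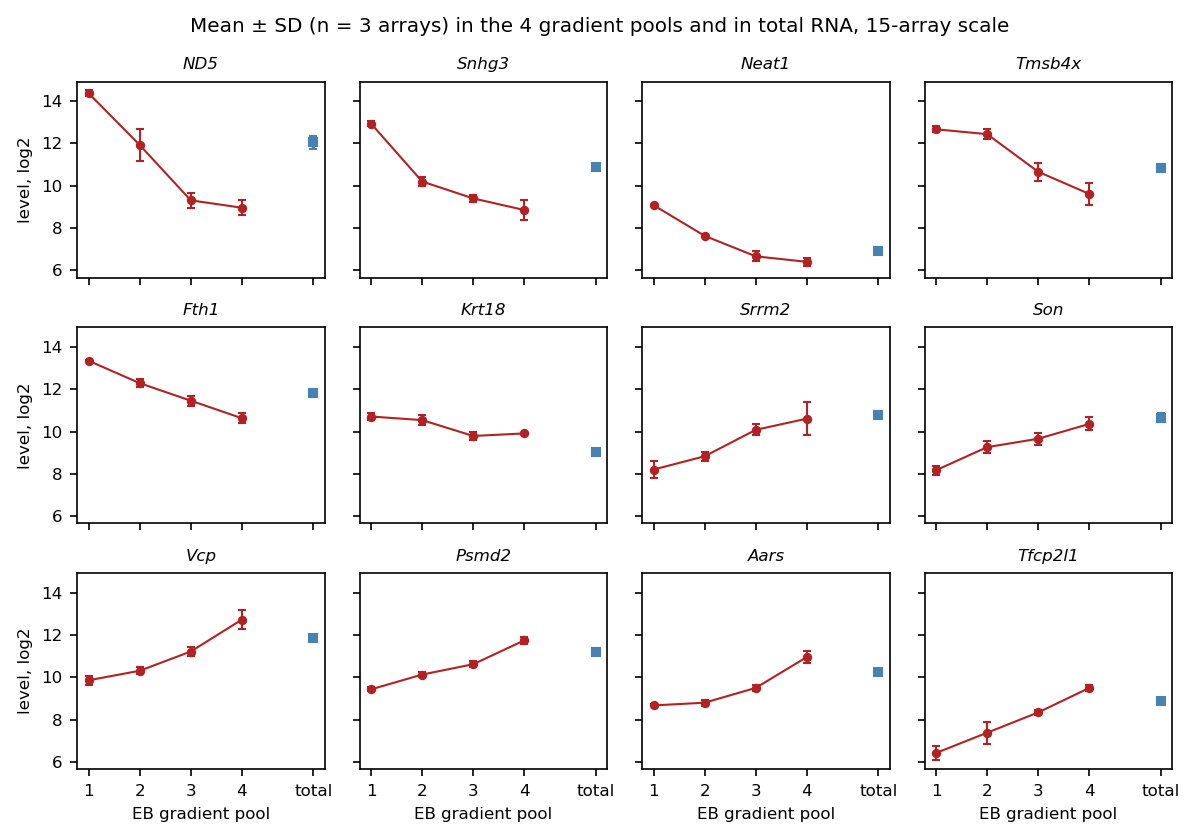
Mean level with SD over 3 arrays, as log2(signal + 32) normalised over 15 arrays, of 12 genes in EB pools 1 to 4 (circles joined by a line) and in EB total RNA (square). Among the pools, ND5, Snhg3, Neat1, Tmsb4x and Fth1 have their highest mean in pool 1, and Srrm2, Son, Vcp, Psmd2, Aars and Tfcp2l1 in pool 4. Means of Srrm2 and Son lie below total RNA in all pools, and those of Krt18 above it.

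Set directly against EB pool 4, 1686 genes were higher in EB pool 1 (9.27%) and 2042 were lower (11.2%), and the split was 634 to 6606 after median centring. Without EB pool 4 replicate 1, 2 or 3 these counts were 1108 and 1219, 1141 and 1235, and 949 and 1080. EB pool 4 minus EB total RNA had 1080 genes higher (5.94%) and 1215 lower (6.68%). Leaving out any 1 of its 6 arrays cut both counts by over 1.5 times, to 205 and 301 without pool 4 replicate 3 and at most 672 and 672 without total replicate 3. These comparisons share the pool 1 arrays and the total arrays with the one above, so their values stand side by side and are not independent. For oxidative phosphorylation the median was 0.20 in pool 1 minus total and -0.83 in pool 4 minus total, and for mitochondrial ribosomal proteins 0.22 and -0.43. For the proteasome the medians were -0.43 and 0.35, for CCT -0.65 and 0.77, and for aminoacyl-tRNA synthetases -0.78 and 0.48. Giant proteins had -0.49 and -0.37, and ribosomal protein lists 0.04 and -0.22 (large) and 0.08 and -0.25 (small). Of 42 giant proteins limma called none higher in pool 4 than in total RNA, also at an unadjusted p under 0.05. The 3' to 5' ratio of Actb was 1.82 to 2.98 in pool 1 and 0.46 to 1.01 in pool 4 (log2), without overlap, and its part in these differences was not tested.

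The EB difference of each transcript was then tested against the same difference in undifferentiated cells (ESC), over 12 arrays normalised together. Of 18193 genes, 313 had a higher difference in EB (1.72%) and 295 a lower one (1.62%), 3.34% in all. The counts were 153 and 103 without ESC pool 1 replicate 2, and leaving out any 1 array other than EB pool 1 replicates 1 and 3 cut at least one of them by over 1.5 times. After median centring the split was 37 and 1117, as the median over 8298 genes above the floor moved from -0.07 to -0.71. Across 8240 genes above the floor on all 12 arrays, the 2 differences correlated at 0.60 (Pearson) and 0.56 (Spearman), which describes these arrays only, since genes are not independent replicates. Of the 104 genes named here, 32 passed the test. RNA integrity measures also separated the states: the Actb 3' to 5' log2 ratio was 1.82 to 2.98 in EB pool 1 and 3.87 to 4.22 in ESC pool 1, and 2.06 to 2.50 in EB total RNA and 2.77 to 3.31 in ESC total RNA. Mean signal was 302 to 376 in EB total RNA and 151 to 156 in ESC total RNA. Their part in the differences between states was not tested.

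Krt18 was 1.66 higher in pool 1 than in total RNA in EB but lay at -0.12 in ESC, a difference between states of 1.78 ± 0.22 (limma adjusted p = 0.00552), and Krt8 had 1.0 in EB and -0.40 in ESC. Nt5dc2, a nucleotidase-like protein, had 0.26 in EB, not called in EB alone, and -1.45 in ESC. Gadd45gip1, a protein of the mitochondrial ribosome, had 0.45 and -1.25, Use1, a SNARE of the endoplasmic reticulum, 1.20 and -0.39, and Mrpl23 1.14 and -0.43. In these genes the difference in ESC was below 0. Snhg3 had 2.19 in EB and 0.61 in ESC, and ND5 2.62 and 1.52, so both were above 0 in either state. Hspa5 had -1.30 in EB and -0.23 in ESC, Atg16l1, of the autophagy machinery, -2.02 and -0.96, and L1td1 -1.33 and -0.53.

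By list, the state test called 15 of 75 genes of oxidative phosphorylation and 14 of 75 mitochondrial ribosomal proteins, each with a higher difference in EB. None had a lower one, against 6 and 1 at limma's unadjusted p under 0.05. It called 4 of 23 import genes and 6 of 43 small core proteins the same way. In the opposite direction it called 8 of 43 splicing factors, 9 of 34 pluripotency genes and 11 of 331 zinc finger proteins, against 0, 0 and 1 with a higher difference in EB (0, 5 and 14 at an unadjusted p under 0.05). Over all genes 1.72% had a higher and 1.62% a lower difference in EB, and of 8240 genes above the floor 563 were called either way. Whether zinc finger proteins exceeded the genes above the floor was not tested. The list medians of pool 1 minus total were 0.20 in EB and -0.03 in ESC for oxidative phosphorylation, 0.22 and -0.14 for mitochondrial ribosomal proteins, and -0.56 and -0.05 for splicing factors. For aminoacyl-tRNA synthetases they were -0.78 and -0.90, and for CCT -0.65 and -0.68, and the state test called 2 of 18 and 0 of 8 (6 and 1 at an unadjusted p under 0.05). Tfrc was the gene named here that was higher in pool 1 in both states and more so in ESC (0.78 in EB and 1.36 in ESC).

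**Figure D5:**
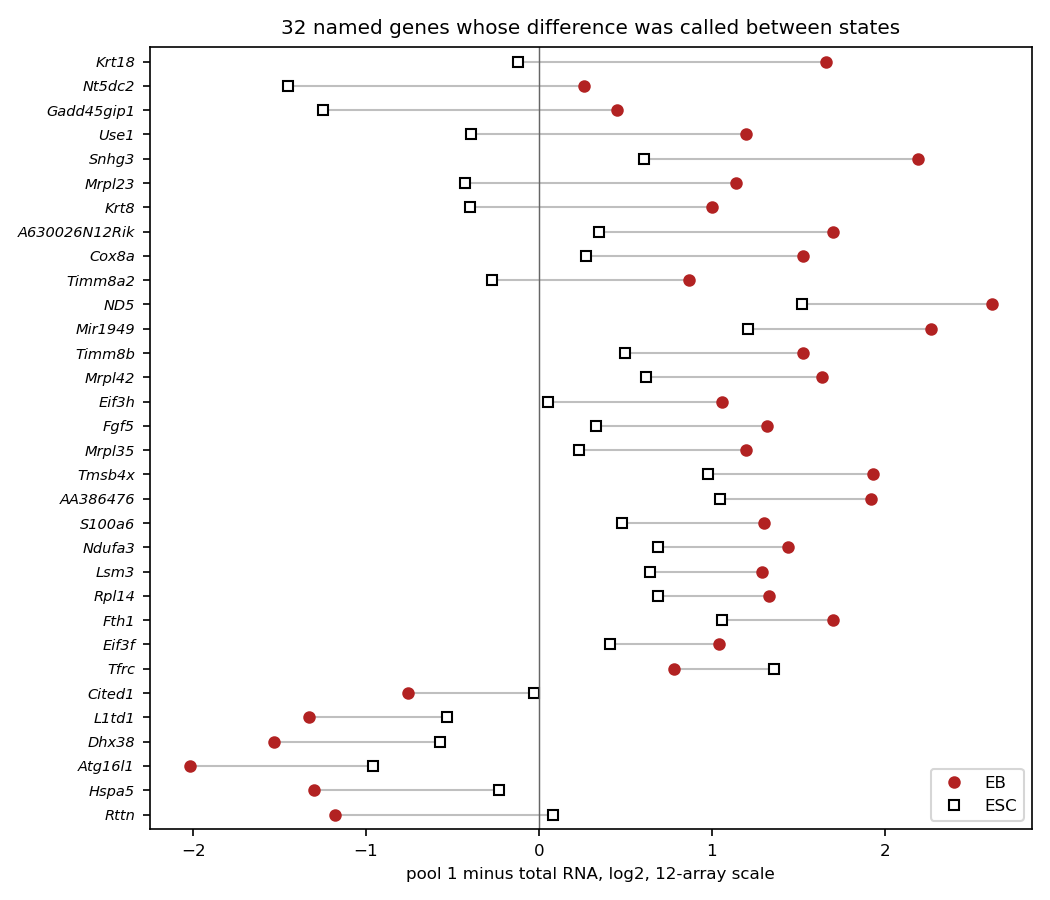
Pool 1 minus total RNA, in log2 on the 12-array scale, in EB (filled circles) and in ESC (open squares) for the 32 named genes called in the test between states, ordered by that difference. Krt18 has 1.66 in EB and -0.12 in ESC, and Rttn -1.18 in EB and 0.08 in ESC.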

How the data were processed

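The deposited values were log2 signals of 45101 probe sets, made by the authors with MAS5 and affy per the submitters' processing notes, without versions or settings. From the values, arrays were scaled to Bacillus spike-in RNAs, pool arrays had a floor and total arrays had none, and the floor was the same on same-numbered pool arrays. Pool and total arrays may thus have been processed differently by the authors, which was not tested. The deposited log2 values were taken back to a linear scale, an offset of 32 was added before log2 was taken again, and the 6 arrays were quantile normalised with limma 3.58.1 in R 4.3.3. All 45037 probe sets other than 64 controls were fitted (lmFit and eBayes, two-sided, 3 against 3 arrays, no replicate block), with Benjamini-Hochberg adjustment over all of them and a threshold of 0.05. A probe set past it is called. On this scale differences of dim genes are understated. The SE of a gene's difference was 0.09 to 0.61, with a median of 0.16, and the number of arrays limits the precision.

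The platform table gave 1 symbol to 34945 probe sets, several to 932 and none to 9160. Each of 18193 genes was read from its probe set of highest mean over the 6 arrays. The test between states used 12 arrays and the contrast (EB pool 1 minus EB total) minus (ESC pool 1 minus ESC total), and the pool 4 comparisons used 6 arrays each, in the same way. Single array measures were compared with exact permutation tests. The rule named, among called genes without overlap and above the floor on all 6 arrays, the 12 highest and 12 lowest, then the 6 genes of highest total RNA level at the floor in pool 1, up to 3 called members per list (32 lists), and the 6 largest called differences between states, 104 genes in all. Members and lists were chosen with earlier results of these data known, and other list members were named after their values were seen.

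Same-numbered arrays of compared groups did not deviate together (correlations of -0.01 to 0.06 over the pairs of groups compared), so replicate numbers were not taken to pair the samples. Start windows and promoters are RefSeq's (GRCm38.p6), and gene spans and types come from the RefSeq gene table. The fit was tested on simulated data with known changes.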

Additional observations from a re-analysis of the deposited data

Results flagged for a closer look

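Of the 104 named genes, 32 had a pool 1 minus total RNA difference that differed between EB and ESC in the test of that difference itself (limma, adjusted p under 0.05), against 3.34% of all genes. Genes were named partly for large differences in EB, and 6 were named by this test, so the share of named genes is no finding.

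The difference was higher in EB, in log2 with EB minus ESC in brackets, for Krt18 (1.78), Nt5dc2 (1.71), Gadd45gip1 (1.69), Use1 (1.59), Snhg3 (1.58), Mrpl23 (1.57), Krt8 (1.40), A630026N12Rik (1.35) and Cox8a (1.26). It was higher in EB by a smaller amount for Timm8a2 (1.14), ND5 (1.10), Mir1949 (1.06), Timm8b (1.04), Mrpl42 (1.01), Eif3h (1.00), Fgf5 (0.99), Mrpl35 (0.97) and Tmsb4x (0.95). The same held for AA386476 (0.87), S100a6 (0.82), Ndufa3 (0.75), Lsm3 (0.65), Rpl14 (0.64), Fth1 (0.64) and Eif3f (0.63).

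It was lower in EB for Tfrc (-0.59), Cited1 (-0.73), L1td1 (-0.81), Dhx38 (-0.96), Atg16l1 (-1.05), Hspa5 (-1.07) and Rttn (-1.25). Cited1 was at the floor on all 3 ESC pool 1 arrays, and Dhx38 and Rttn on all 3 EB pool 1 arrays, so their values include a limit and not a level. Timm8a2 was at the floor on 2 of 3 ESC pool 1 arrays and Cited1 on 2 of 3 EB pool 1 arrays.

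With offset 64 all 32 genes were still called, and with replicate number as a block 25 were. After median centring 7 of the 32 were still called in the same direction, and Rpl14 (-0.26) and Ndufa3 (-0.03) changed sign, while Lsm3 was at 0.00. Leaving out 1 array at a time kept the sign of all 32 and the call of 20 to 28 of them.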

How the results depend on the processing

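The counts of calls depended on the scaling and on the number of arrays more than on the other choices. On the deposited scale 10 genes were higher and 10247 lower (probe sets 81 and 18916). Median centring gave 2738 and 7662 (probe sets 10481 and 12950), and the 75th percentile scaling 4945 and 2340 (probe sets 16307 and 3810). By construction these scalings move the median of all probe sets by -0.40, 0.14 and 0.40. Offset 16, offset 64, a floor on total arrays too, dropping the lowest 40%, keeping only probe sets above the floor, an intensity trend and the median over probe sets kept every count of higher and lower genes within 1.5 times. Of the 2184 called genes, 1681 and 2165 were also called the same way with offsets 16 and 64, 1902 with the trend, 1271 on the deposited scale and 2009 with the 75th percentile scaling.

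With 1 array left out, genes called were 384 to 789 higher and 462 to 1208 lower, and probe sets 855 to 1875 and 813 to 2275. Of the 102 named genes that were called, 72 stayed called with any 1 EB array left out and 30 were lost at least once, with no change of sign. The state test gave 153 to 300 higher and 103 to 309 lower, fewest without ESC pool 1 replicate 2. EB pool 4 minus total gave 205 to 672 and 301 to 672, and pool 1 minus pool 4 gave 949 to 1668 and 1080 to 1965, fewest without EB pool 4 replicate 3. Median centring gave 37 and 1117 in the state test, 2092 higher in pool 4 minus total, and 634 and 6606 in pool 1 minus pool 4, and offset 64 gave 468 lower in the state test. The cause of these shifts was not tested.

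Same-numbered arrays did not deviate together, although same-numbered pool arrays share the value of the floor, and a fit with the replicate number as a block called 430 genes higher and 585 lower (probe sets 1020 and 1010), 187 lower in the state test, and 872 and 919 in pool 1 minus pool 4. In pool 4 minus total the block left 0 and 0 called by limma, with 2400 and 2599 at an unadjusted p under 0.05 and a smallest adjusted p of 0.0503. Of the 104 named genes 86 kept their call with the block.

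Directions of called named genes turned on the deposited scale, without taking off the shift, for Rpl14 (-0.58), Rpl37 (-0.94), Rpl22l1 (-0.47), Rps27l (-0.50), Eif3f (-0.29), Eif3h (-0.55), Slc40a1 (-0.37), Tfrc (-0.99), H1f2 (-0.84), H2ac19 (-0.57), Cox8a (-0.34), Atp5md (-0.28), Ndufa3 (-0.30), Mrpl42 (-0.11), Mrps36 (-0.36), Mrpl35 (-0.66), Mrpl23 (-0.73), Timm8b (-0.36), Timm8a1 (-0.77), S100a6 (-0.49), Lsm3 (-0.33), Fgf5 (-0.08), Etv2 (-0.22), Krt18 (-0.23), Krt8 (-0.71), Acta2 (-0.02) and Use1 (-0.65). After median centring they turned for Rpl14 (-0.03), Rpl37 (-0.40), Eif3h (-0.01), Tfrc (-0.45), H1f2 (-0.30), H2ac19 (-0.02), Mrpl35 (-0.12), Mrpl23 (-0.19), Timm8a1 (-0.23), Krt8 (-0.17) and Use1 (-0.11). Relative to measured genes, on both of these scales, Cited1 (0.11) and Amn (0.50) turned instead, and none turned with the 75th percentile scaling. With the median over probe sets Prrc2c (0.49), Eif3h (-0.12), Tfrc (-0.46) and Fn1 (0.05) turned. The 3 scalings relative to measured genes and the span bins were chosen after seeing the data, and grouping by protein length was not run. The floor limits what can be said of dim genes in pool 1, and the labels do not tell which pool holds free RNA.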
